A study of Mus musculus with 6 samples.

Results

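*Cwc22*, *Nnt* and 3 processed pseudogenes with their parent genes (*Ctdsp2-ps* and *Ctdsp2*, *Tent2-ps1* and *Tent2*, *Npm3-ps1* and *Npm3*) were followed in cultured cardiac fibroblasts (CFs), 8 of the 19446 genes of the table. They are genes that vary, or may vary, between mouse strains, and they were chosen by symbol with their values in this comparison already known, so the differences between genotypes given for them are a description without a test. The study grew CFs from hearts of mice aged 5 weeks and sequenced 3 libraries of each of 2 genotypes, wild type (WT) and CharmeKO. CharmeKO mice carry a polyadenylation signal inserted into *Charme*, a gene for a long non-coding RNA, to end its transcript early. The methods name C57BL/6J mice for both genotypes and explants of atrial tissue collected from several littermates, grown on fibronectin in IMDM with 20% FBS. The methods state independent cell isolations for the experiments in general, and the labels do not name the culture of each library. The sources used here do not tell how far the 2 lines share their genetic background. A difference in background between the lines and the loss of *Charme* cannot be told apart with these 2 groups.

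A processed pseudogene is a copy of a spliced messenger RNA that was reverse transcribed and inserted elsewhere in the genome, and it is read out only if it lands where transcription passes. Such insertions, and tandem copies of whole genes, differ between inbred strains, so that a gene-level count at such a place can follow the ancestry of the mice. *Cwc22* encodes a spliceosome protein that brings Eif4a3 to the exon junction complex. It belongs to a segment of chromosome 2 whose copy number varies between strains. *Nnt* encodes the transhydrogenase of the inner mitochondrial membrane, which makes NADPH, and C57BL/6J mice carry an internal deletion in it that leaves no functional protein.

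The sequences show why a pseudogene and its parent are hard to separate by reads. For each pair, the stretch of 90 coding bases with the most mismatches is printed from GENCODE M21 transcripts (build GRCm38), 5′ to 3′, with the bases that differ between the copy and the gene in capitals.
Ctdsp2-ps: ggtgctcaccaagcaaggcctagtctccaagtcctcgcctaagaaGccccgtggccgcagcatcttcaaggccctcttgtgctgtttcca
Ctdsp2: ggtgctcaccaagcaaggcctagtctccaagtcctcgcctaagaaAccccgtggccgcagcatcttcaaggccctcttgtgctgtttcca
Tent2-ps1: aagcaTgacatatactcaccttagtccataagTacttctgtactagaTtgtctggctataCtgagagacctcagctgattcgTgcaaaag
Tent2: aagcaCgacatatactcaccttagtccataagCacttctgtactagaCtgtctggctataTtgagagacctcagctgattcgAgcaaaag
Npm3-ps1: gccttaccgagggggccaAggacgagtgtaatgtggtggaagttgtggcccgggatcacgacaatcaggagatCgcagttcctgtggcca
Npm3: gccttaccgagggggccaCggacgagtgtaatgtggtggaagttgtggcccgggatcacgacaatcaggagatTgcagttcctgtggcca
Gm13691, a copy of *Cwc22* without introns, is set beside *Cwc22* in the same way.
Gm13691: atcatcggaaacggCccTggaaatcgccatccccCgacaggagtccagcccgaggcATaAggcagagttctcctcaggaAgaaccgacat
Cwc22: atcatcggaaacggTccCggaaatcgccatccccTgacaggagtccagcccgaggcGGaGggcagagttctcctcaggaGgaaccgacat

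*Ctdsp2-ps* (chromosome 10, 130412499 to 130413309, GRCm38, annotated there as Gm9770) had 3 mismatches to the coding sequence of *Ctdsp2* over 810 aligned bases, an identity of 99.6%. It lies 3413 kb from *Ctdsp2* (chromosome 10, 126978717 to 126999975) on the same chromosome. *Tent2-ps1* (chromosome 5, 55624190 to 55625591, annotated as Gm15975) had 19 mismatches to *Tent2* (chromosome 13, 93146282 to 93192385) over 1402 bases, an identity of 98.6%, and lacked 37 bases of it. *Npm3-ps1* (chromosome 6, 85076192 to 85076719) had 6 mismatches to *Npm3* (chromosome 19, 45747734 to 45749591) over 528 bases, an identity of 98.9%. All 3 pseudogenes are single exons without an intron, and none overlaps another annotated gene.

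The spliced transcript of *Cwc22* (chromosome 2, 77881159 to 77946375) has 7 near-identical copies in the same annotation, Gm13691 and Gm13693 to Gm13698. They lie in a block of 37.4 kb that begins 6009 kb beyond *Cwc22* (chromosome 2, 83955693 to 83993045). The transcript of Gm13691, of 2493 bases, fills its whole place in the genome (83990553 to 83993045), so it has no intron. Gm13691 had 39 mismatches to *Cwc22* over 2474 bases, an identity of 98.4%, and none of the 7 copies was among the genes analysed. On its own strand *Cwc22* is also overlapped by Gm13727, annotated as a processed transcript. *Nnt* (chromosome 13, 119335448 to 119408997) is overlapped on its own strand by a second gene model of the same name. Gene-level values do not show single exons, so the deletion of C57BL/6J could not be looked for.

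The authors' counting kept reads that map to 1 place, so what can be counted depends on where copy and gene differ. Of all stretches of 100 bases along the transcript, 55.3% in *Ctdsp2-ps*, 40.1% in *Tent2-ps1* and 35.0% in *Npm3-ps1* were identical to the parent gene. The other way round, 8.35% of *Ctdsp2*, 17.5% of *Tent2* and 19.0% of *Npm3* were identical to the pseudogene. With stretches of 150 bases the shares fell to 40.5%, 28.2% and 13.2% for the 3 pseudogenes. In *Cwc22*, 14.1% of the stretches of 100 bases occurred in another gene, with Gm13727 and the distant copies not told apart. In *Nnt* 96.3% did, in the second *Nnt* model at the same place, which was not among the genes analysed. The levels of *Cwc22* and the pseudogenes are therefore uncertain in size, and the read length is not given in the sources used here. Reads shared by both *Nnt* models still lie at 1 place, so the rule of mapping to 1 place does not by itself remove them. The effect of its second model on the count was not tested.

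Values are the deposited normalised reads (reads divided by a size factor of the library), with 38330019 to 46797446 reads per library. The *Charme* feature of the table, CUFF405, rested on 5, 15 and 11 reads for WT libraries 1, 2 and 3, against 0, 6 and 3 for CharmeKO. Fibroblast markers were present throughout, with 9 of 9 in the table and a summed level of 25047 to 53555 CPM (reads scaled to 1e+06 per library) in WT and 33203 to 44216 in CharmeKO. Of other cell types, smooth muscle and pericyte markers (5 of 5 in the table) summed to between 17.95 and 125 CPM in WT and between 9.04 and 9.51 in CharmeKO, without overlap. The groups overlapped for the summed markers of cardiomyocytes (3 of 7 in the table, at most 18.5 CPM), endothelial cells (4 of 5, at most 5.39), macrophages and blood (5 of 6, at most 384) and mesothelium (4 of 4, at most 131). No marker found in the table was at 0 in all libraries. Sex-linked genes also differed, with *Xist* at 232, 283 and 681 CPM in WT and 50.3, 0.201 and 200 in CharmeKO 1, 2 and 3, and the Y-linked *Eif2s3y* at 0.442 CPM in WT 3 against 25.9 to 48.2 in the other libraries. The part of smooth muscle cells and of sex in the results that follow was not tested.

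*Cwc22* was lower in every CharmeKO library than in any WT library. It had 5817, 1738 and 3409 normalised reads in WT 1, 2 and 3, and 1010, 874 and 745 in CharmeKO 1, 2 and 3. WT libraries spread 3.35-fold and CharmeKO libraries 1.36-fold, and the nearest libraries of the groups, WT 2 and CharmeKO 1, lay 1.72-fold apart. WT had a mean of 3655 ± 2051 and CharmeKO one of 877 ± 133 (SD, n = 3 each), which is 4.17-fold lower. On the log2(value + 1) scale the difference, CharmeKO minus WT, was -1.90 (SE 0.428). It was -2.52, -0.99 and -2.19 within the same-numbered pairs 1, 2 and 3, so pair 2 had the smallest difference.

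*Nnt* overlapped between the groups. It had 3357, 4100 and 3525 normalised reads in WT and 3495, 4701 and 5332 in CharmeKO 1, 2 and 3. CharmeKO 1 lay between WT 1 and WT 3, and the other CharmeKO libraries lay above all of WT. The log2 difference was 0.28 (SE 0.204), and it was 0.15 without CharmeKO 3. Within pairs 1, 2 and 3 it was 0.058, 0.20 and 0.60.

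*Ctdsp2-ps* rested on 7 to 13 reads per library in WT and on 68 to 377 in CharmeKO. It had 6.89, 13.9 and 14.3 normalised reads in WT 1, 2 and 3 and 104, 371 and 59.1 in CharmeKO 1, 2 and 3. The CharmeKO libraries spread 6.27-fold among themselves, and the lowest of them was still 4.14-fold above the highest WT library. Summed over the groups, 33 reads in WT and 553 in CharmeKO gave a ratio of 14.96 after scaling, with a 95% counting interval of 10.5 to 21.9. CharmeKO 2 alone held 377 of the 553 reads. This interval, like those given below for the other 2 pseudogenes, leaves out the spread between libraries, so it is not an interval for the genotypes. At 3.45 (SE 0.749) its log2 difference had rank 4 from the highest of the 15948 genes tested. It was 2.71 without CharmeKO 2, the library with the highest value.

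Its parent *Ctdsp2*, a small phosphatase that acts on the C-terminal domain of RNA polymerase II, did not separate the groups. It had 11730.0, 17243 and 13414 normalised reads in WT 1, 2 and 3 and 12907, 14944 and 17191 in CharmeKO 1, 2 and 3. The lowest and the highest library were both WT, 1 and 2, with CharmeKO 3 just under the latter. It differed by 0.096 log2 units (SE 0.220), with a direction that turned without WT 1 (-0.028) or CharmeKO 3 (-0.0061).

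*Tent2-ps1* took the opposite course to the other 2 pseudogenes. It had 77.8, 28.8 and 69.2 normalised reads in WT 1, 2 and 3 and 7.69, 6.88 and 8.70 in CharmeKO 1, 2 and 3. The CharmeKO libraries lay within 1.26-fold of each other, and WT 2, the lowest of WT, was 3.31-fold above the highest of them. Summed reads of 169 in WT and 25 in CharmeKO gave a 7.57-fold lower level in CharmeKO (95% counting interval 4.96 to 12.0). On the log2 scale it differed by -2.65 (SE 0.546), rank 27 from the lowest of all genes tested.

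The parent *Tent2* encodes a cytoplasmic poly(A) polymerase that lengthens tails of messenger RNAs. It was among the steadiest genes of the table, with 1655, 1732 and 1546 normalised reads in WT 1, 2 and 3 and 1728, 1430 and 1651 in CharmeKO 1, 2 and 3. Its SD within groups was 0.116 on the log2 scale, and only 4.46% of the genes tested had a smaller one. Its log2 difference was -0.040 (SE 0.155), and 0.040 without CharmeKO 2.

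*Npm3-ps1* rested on the fewest reads. The WT libraries 1, 2 and 3 held 1, 3 and 2 reads, at or under the limit of 3 reads that a count of 0 allows, and the CharmeKO libraries 15, 31 and 25. In normalised reads this was 0.985, 3.20 and 2.20 against 14.4, 30.5 and 21.7, so the groups did not overlap. The summed 6 and 71 reads gave a ratio of 10.6, with a 95% counting interval of 4.62 to 29.7. Between the groups the log2 difference was 2.90 (SE 0.610), and the 3 pairs lay close together at 2.96, 2.90 and 2.83. It was 1.90 with a pseudocount of 5 in place of 1 and 3.43 with the blocked DESeq2 model.

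The parent *Npm3*, a histone chaperone of the nucleoplasmin family, overlapped between the groups. It had 1287, 808 and 1040 normalised reads in WT 1, 2 and 3 and 1162, 964 and 889 in CharmeKO 1, 2 and 3. Its log2 difference was -0.040 (SE 0.230). The direction turned without WT 1 (0.12) or CharmeKO 3 (0.044).

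**Figure D1:**
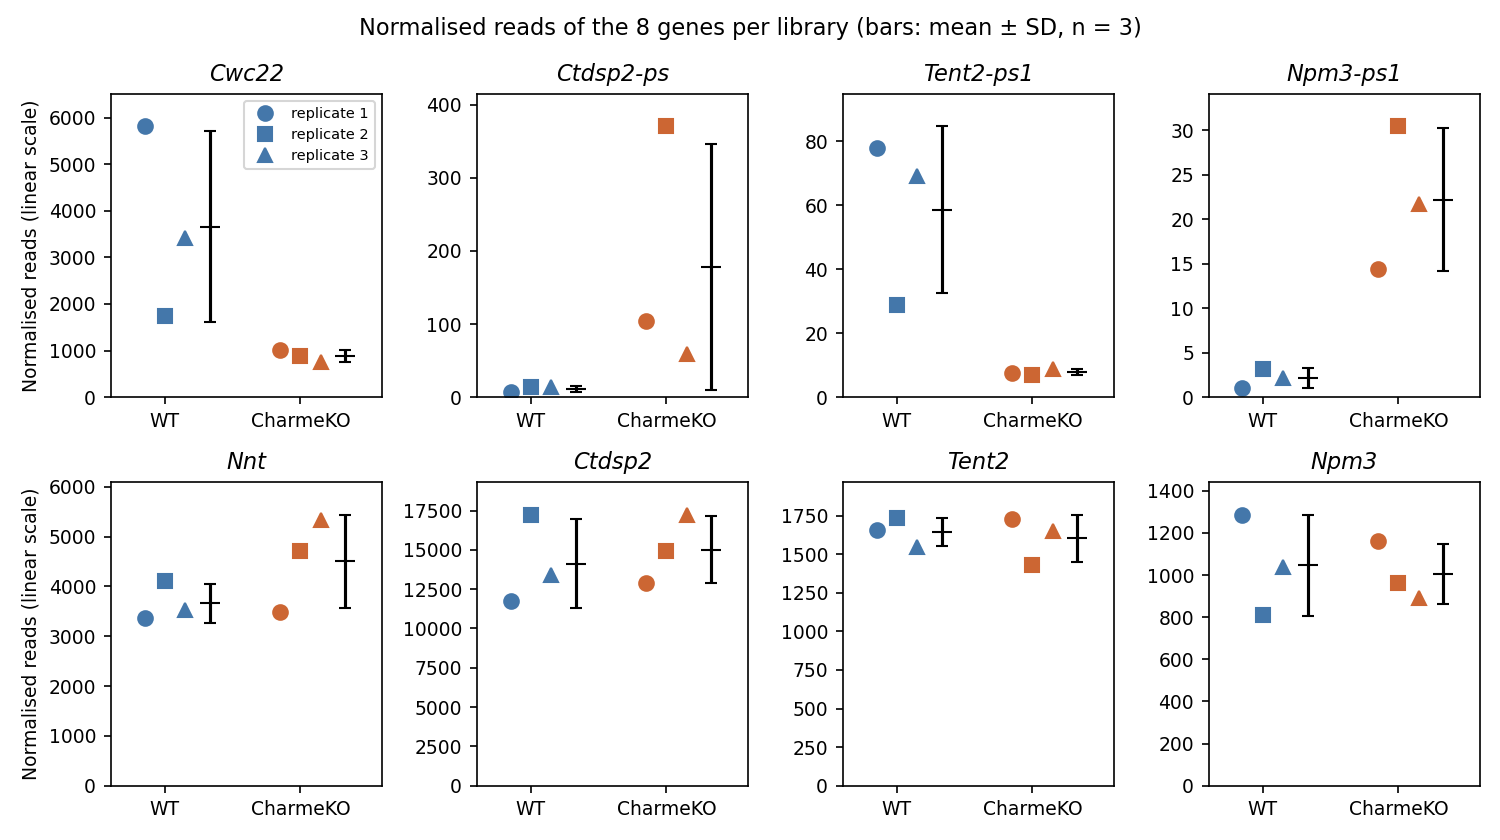
Normalised reads of the 8 genes (vertical axes, linear, each panel with its own scale from 0) in WT and CharmeKO libraries; circles, squares and triangles are replicates 1, 2 and 3, and the black bars give the mean ± SD of 3 libraries. *Cwc22* and the 3 pseudogenes in the upper row do not overlap between groups, whereas *Nnt* and the 3 parent genes in the lower row do.

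Counted together, 2 of the 8 genes lay higher in CharmeKO without overlap (*Ctdsp2-ps* and *Npm3-ps1*), where 2.14% of all 15948 genes tested did. Another 2 lay lower without overlap (*Cwc22* and *Tent2-ps1*), where 1.98% of all genes did. The contrast had been used to choose the 8 genes, so nothing is read from these counts. All 8 passed the filter on low reads, *Npm3-ps1* only through CharmeKO and *Tent2-ps1* only through WT. limma called 0% of the genes tested (0 of 15948 at an adjusted p under 0.05, 143 at an unadjusted one), and edgeR also called 0. The DESeq2 Wald test called 0.0126% of genes higher and 0.0378% lower in CharmeKO, 8 in all, and 3 of the 8 genes described here were among them (*Ctdsp2-ps* higher, *Cwc22* and *Tent2-ps1* lower). With the replicate number as a block, DESeq2 called 0.185% of genes higher and 0.27% lower, 64 in all. The same 3 genes were among them, of the 7 members with an adjusted p in that model, which gave none for *Npm3-ps1*. As the members were chosen with this contrast known, nothing is read from their calls either.

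**Figure D2:**
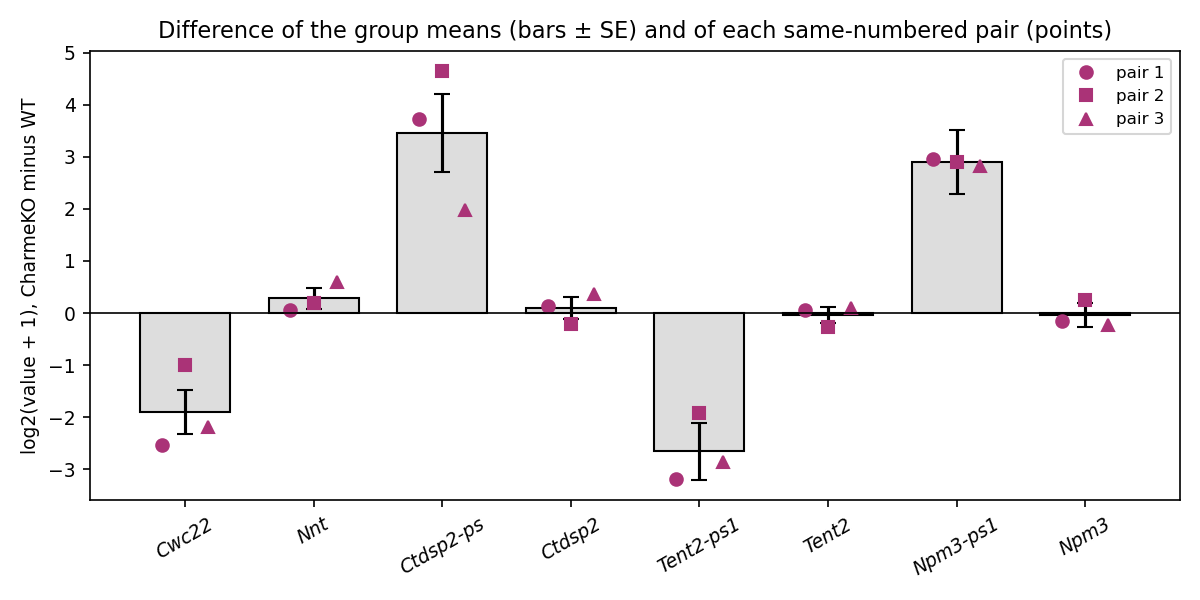
Difference between CharmeKO and WT on the log2(value + 1) scale for each gene: grey bars give the difference of the group means with the SE of the fit, and points give same-numbered pairs 1 to 3. For *Cwc22*, *Ctdsp2-ps*, *Tent2-ps1* and *Npm3-ps1* all 3 pairs lie on 1 side of 0, as they do for *Nnt* close to 0, while the parent genes have pairs on both sides.

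The share of the pseudogene in the reads of pseudogene and parent gene was computed per library, with exact (Clopper-Pearson) 95% intervals that cover counting error only. *Ctdsp2-ps* gave 0.0587% (0.0236 to 0.121), 0.0804% (0.0428 to 0.137) and 0.106% (0.0566 to 0.182) in WT 1, 2 and 3. In CharmeKO 1, 2 and 3 it gave 0.798% (0.655 to 0.963), 2.42% (2.18 to 2.67) and 0.343% (0.266 to 0.434). No interval of a WT library reached one of a CharmeKO library, and the 3 CharmeKO libraries also stood apart from each other beyond counting error.

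*Tent2-ps1* gave 4.49% (3.57 to 5.56), 1.64% (1.08 to 2.37) and 4.29% (3.31 to 5.45) in WT 1, 2 and 3. In CharmeKO it gave 0.443% (0.192 to 0.871), 0.479% (0.193 to 0.984) and 0.524% (0.252 to 0.962) in replicates 1, 2 and 3. The CharmeKO libraries were alike within counting error, and WT 2 lay apart from both other WT libraries.

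*Npm3-ps1* gave 0.0765% (0.00194 to 0.425), 0.395% (0.0815 to 1.15) and 0.211% (0.0255 to 0.759) in WT 1, 2 and 3. In CharmeKO it gave 1.23% (0.687 to 2.01), 3.06% (2.09 to 4.32) and 2.39% (1.55 to 3.50). The intervals of WT 2 and WT 3 each overlapped that of CharmeKO 1. Overlap of such intervals does not show that the shares are alike, and single libraries were not tested against each other.

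For *Ctdsp2-ps* the share averaged 0.0818 ± 0.0238% over WT and 1.19 ± 1.09% over CharmeKO libraries. The same means were 3.47 ± 1.59% and 0.482 ± 0.0405% for *Tent2-ps1*, and 0.227 ± 0.160% and 2.23 ± 0.930% for *Npm3-ps1* (SD, n = 3 each). Even at its highest, 4.49% for *Tent2-ps1* in WT 1, the pseudogene held a small part of the reads of its pair. The sum of pseudogene and parent reads differed by 0.11, -0.084 and -0.011 log2 units for the *Ctdsp2*, *Tent2* and *Npm3* pairs, close to the parent genes alone.

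**Figure D3:**
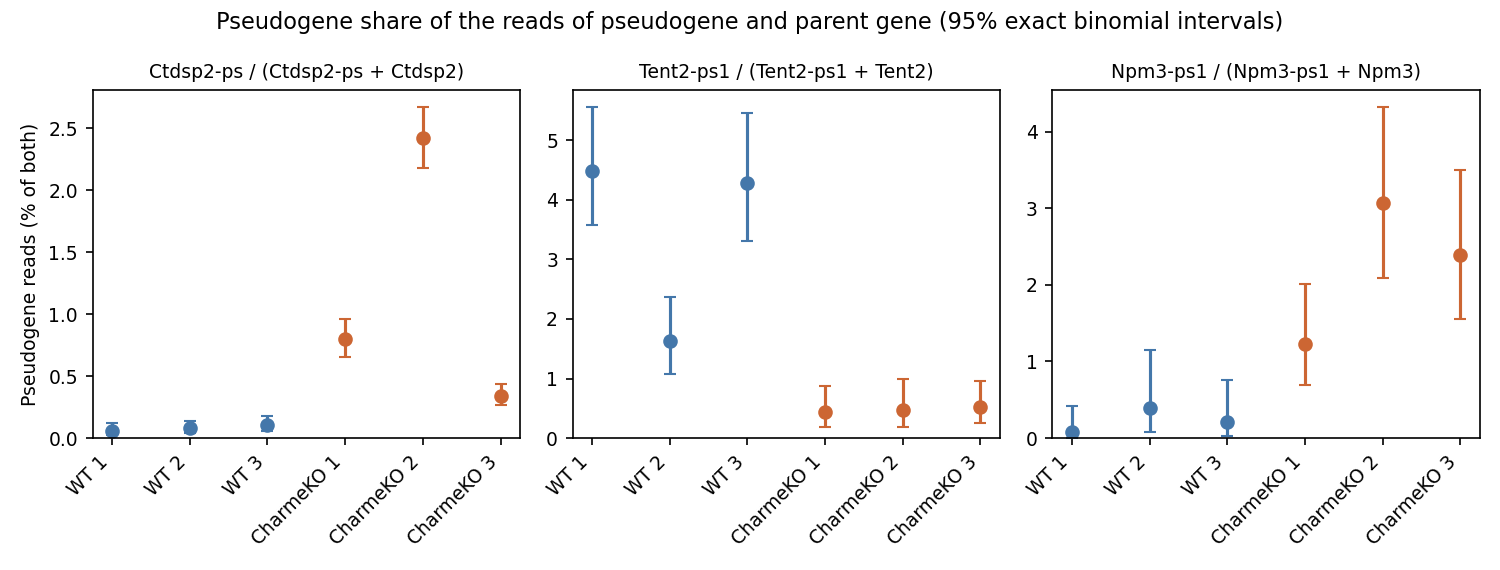
Reads of each pseudogene as a percent of the reads of pseudogene and parent gene (vertical axes from 0) in the 6 libraries, with 95% exact binomial intervals. *Ctdsp2-ps* and *Npm3-ps1* take larger shares in the 3 CharmeKO libraries (up to 2.42% and 3.06%), and *Tent2-ps1* in the 3 WT libraries (up to 4.49%).

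Levels of different genes were compared as normalised reads per kb of annotated exon. In WT the order was *Ctdsp2* (2558 ± 511), *Npm3* (881 ± 202), *Cwc22* (536 ± 301), *Nnt* (520 ± 55.3), *Tent2* (394 ± 22.4), *Tent2-ps1* (41.8 ± 18.7), *Ctdsp2-ps* (14.4 ± 5.12) and *Npm3-ps1* (4.03 ± 2.10). The range of mean ± SD of *Cwc22* overlapped those of *Npm3*, *Nnt* and *Tent2*. In CharmeKO the order was *Ctdsp2* (2718 ± 388), *Npm3* (847 ± 119), *Nnt* (641 ± 133), *Tent2* (384 ± 37.0), *Ctdsp2-ps* (219 ± 208), *Cwc22* (128 ± 19.4), *Npm3-ps1* (42.1 ± 15.2) and *Tent2-ps1* (5.53 ± 0.649). The range of mean ± SD of *Ctdsp2-ps* overlapped those of its neighbours in this order, *Tent2* and *Cwc22*, and the ranges of *Npm3* and *Nnt* overlapped each other.

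The genes most alike to each member over the 6 libraries were found by the correlation of log2(value + 1), as a description over libraries that share their genotype and replicate number. The WT order of *Cwc22* and *Tent2-ps1* was the same, with WT 1 highest, WT 3 next and WT 2 lowest. The same processed pseudogene, *Gm5909* (chromosome 8, 80110806 to 80112086), came first for both, with r = 0.992 for *Cwc22* and 0.988 for *Tent2-ps1*. *Gm5909* had 36.4, 7.47 and 22.0 normalised reads in WT 1, 2 and 3 and 1.92, 1.97 and 1.74 in CharmeKO 1, 2 and 3. The next gene for *Cwc22* was *Zbtb8b* (r = 0.970), with 30.5, 2.14 and 29.7 normalised reads in WT and 0.961, 0 and 0 in CharmeKO. For *Tent2-ps1* it was *Utp20* (0.976). *Gm5909* and *Zbtb8b* lay under the limit of 3 reads in every CharmeKO library, and both passed the filter on low reads only through WT.

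For *Ctdsp2-ps* the most alike genes were *Ddx47* (r = 0.977), an RNA helicase, and *Cdk5* (0.974), a kinase. For *Npm3-ps1* they were *Ndufaf1* (0.988), an assembly factor of respiratory complex I, and *Ccs* (0.986), the copper chaperone of superoxide dismutase. Those genes differed by no more than 0.28 log2 units between the groups, so a high r came with a far smaller difference. *Nnt* was like *Acad8* (0.996), *Ctdsp2* like *Plppr3* (0.995) and *Mterf1a* (0.994), *Tent2* like *Cebpa* (0.991) and *Gm11423* (0.983), and *Npm3* like *Med7* (0.998) and *Dpysl2* (0.996).

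The tested genes nearest to the members in the genome were compared next, up to 5 on each side, 75 in all. Some lay far off: the nearest was 1452 kb from *Ctdsp2-ps* and 1503 kb from *Tent2-ps1*. The farthest lay 3782 kb from its member, *Ctdsp2*. limma called 0 of them, with 1 at an unadjusted p under 0.05, and DESeq2 called 0 with or without the block. Their median log2 difference was -0.060, beside 0.0022 for all genes tested. Of the 75, 2 were higher and 2 lower in CharmeKO without overlap (2.67% each, beside 2.14% and 1.98% of all genes).

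These 4 neighbours are named after their values were seen. *Rbpj*, the DNA-binding factor of Notch signalling and the neighbour with the lowest p, lies 1967 kb from *Tent2-ps1* and had 7052, 8027 and 7960 normalised reads in WT and 5229, 5499 and 3209 in CharmeKO. Its log2 difference was -0.76 (SE 0.240, limma adjusted p = 0.9999). *Gm42481* (-1.16, SE 0.691), 2153 kb from *Tent2-ps1*, was the other one lower in CharmeKO. *Tmem267* (0.91, SE 0.398) beside *Nnt* and *Pradc1* (0.37, SE 0.246) beside *Npm3-ps1* were higher.

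For the 4 members that did not overlap between groups, the neighbours lay on both sides of 0. Those of *Cwc22* ran from -1.02 to 1.32 with a median of -0.076, those of *Ctdsp2-ps* (5, all on 1 side) from -0.58 to 0.30 with a median of 0.18, and those of *Npm3-ps1* from -0.93 to 0.37 with a median of -0.13. Those of *Tent2-ps1* ran from -1.16 to 0.14 with a median of -0.38, and 7 of the 10 were below 0, the direction of *Tent2-ps1* itself. No neighbour of any of these 4 came as far from 0 as the member itself. The members were chosen with this contrast known and the neighbours by position, so nothing is read from this.

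**Figure D4:**
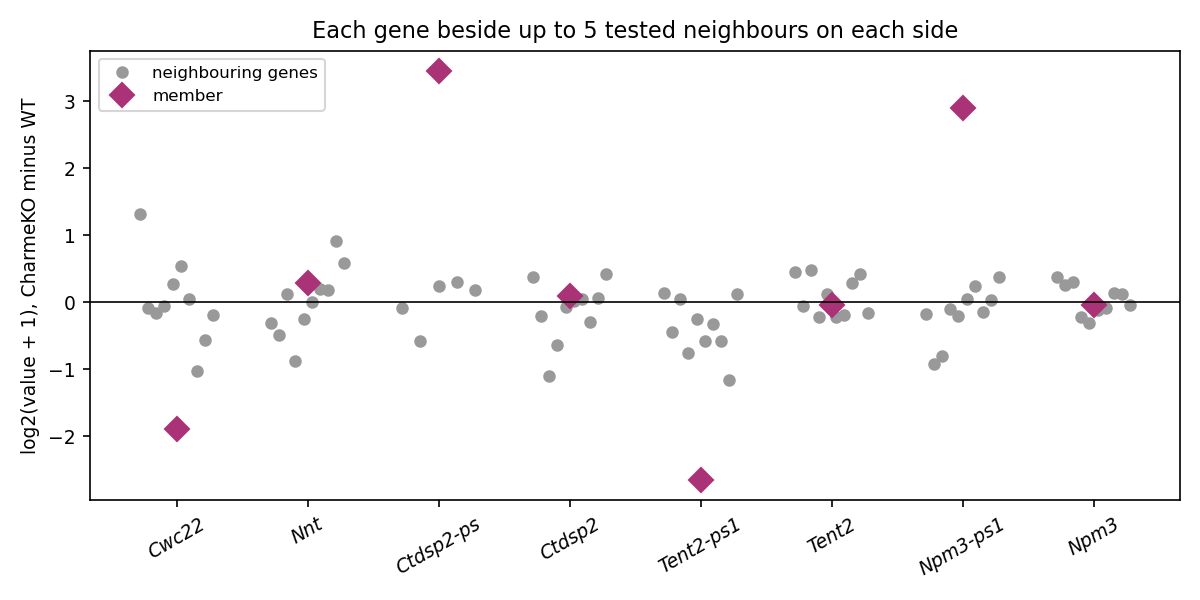
Log2 difference between CharmeKO and WT (log2(value + 1) scale) of each of the 8 genes (diamonds) and of up to 5 tested genes on each side of it (circles). The neighbours of *Cwc22* and the 3 pseudogenes lie between -1.16 and 1.32, closer to 0 than the diamonds of those genes, which were chosen with this contrast known.

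Other pseudogenes were counted by symbol. Of 160 tested rows named as pseudogenes, apart from the 3 described above, limma called 0 (8 at an unadjusted p under 0.05) and DESeq2 called 1. Their median log2 difference was -0.034, and its median size was 0.23 beside 0.17 for all genes. Groups did not overlap for 7 higher (4.38%) and 9 lower (5.63%), beside 2.14% and 1.98% of all genes. A parent gene by symbol was tested for 11 of those 16. The parent did not overlap either for 1 of them, *Hmgn2* (named after its values were seen). There gene and pseudogene differed in opposite directions (-1.24 and 0.95 on the log2 scale). The rows counted are not all independent. *Gvin-ps1*, *Gvin-ps2* and *Gvin-ps4* (named after their values were seen) share a family by symbol and were all among the lower rows, while the other *Gvin* rows tested overlapped.

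The row with the lowest p was *Mid1-ps1* (chromosome Y, 90753057 to 90763485). It had 32.5, 27.8 and 25.3 normalised reads in WT 1, 2 and 3 and 121, 284 and 308 in CharmeKO 1, 2 and 3. Its log2 difference was 2.91 (SE 0.462, limma adjusted p = 0.9999), and it was the 1 row that DESeq2 called. As this row lies on the Y chromosome in the annotation, the Y-linked *Eif2s3y* is set beside it. *Eif2s3y* was at 25.9, 40.2 and 0.442 CPM in WT 1, 2 and 3 and at 45.7, 47.2 and 48.2 in CharmeKO 1, 2 and 3. *Mid1-ps1* had similar values in all WT libraries, also in WT 3, where *Eif2s3y* was lowest. The part of sex was not tested. *Mid1*, an X-linked ubiquitin ligase whose 3′ end spans the pseudoautosomal boundary, was at -0.61 (SE 0.363).

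Among 163 pseudogene rows with the members included, *Ctdsp2-ps*, *Npm3-ps1* and *Tent2-ps1* ranked 1, 4 and 5 by the size of the log2 difference. This follows from how they were chosen and is given as a description.

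The partners of *Cwc22* were then examined: exon junction complex, spliceosome and nonsense-mediated decay genes, all 22 tested. limma called 0, with 0 at an unadjusted p under 0.05, DESeq2 called 0, and all 22 overlapped between the groups. Their median log2 difference was 0.014, with a median size of 0.061. *Smg5*, a nonsense-mediated decay factor, had the lowest p (-0.31, SE 0.305), and *Eif4a3*, the partner of Cwc22, was at 0.12 (SE 0.163).

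Genes of mitochondrial NADPH supply and peroxide removal that work beside *Nnt* gave 0 calls with limma (0 at an unadjusted p under 0.05) and 0 with DESeq2 among 18 tested. All overlapped between the groups, with a median of 0.019. The lowest p was that of *Sod2*, the mitochondrial superoxide dismutase (0.57, SE 0.379). *Idh2*, a further source of mitochondrial NADPH, was at 0.33 (SE 0.394).

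The relatives of the parent genes showed no calls with limma, edgeR or DESeq2, and none had an unadjusted limma p under 0.05. The 8 other C-terminal domain phosphatases had a median of -0.015, with *Ctdp1* at the lowest p (-0.16, SE 0.235). The 11 other poly(A) polymerases and terminal nucleotidyltransferases tested had a median of -0.13, and *Tent4b* (-0.19, SE 0.146), with the lowest p, was the 1 that did not overlap. The 13 nucleoplasmin family members and histone chaperones had a median of 0.029, with *Npm2* at the lowest p (-0.92, SE 0.717).

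Of 10 other genes known to differ between strains or substrains, 3 were among the genes tested, and limma and DESeq2 called 0 of them (0 at an unadjusted p under 0.05). *Mid1* had the lowest p and is given above. *Cyfip2*, which carries a missense variant in a C57BL/6 substrain, was at 0.78 (SE 0.485), and *Glo1*, which is duplicated in some strains, was at -0.0016 (SE 0.199). All 3 overlapped between the groups.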

How the data were processed

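The authors aligned reads of poly(A) directional libraries with STAR, counted them per gene on the reverse strand with an Ensembl annotation to which *Charme* had been added, dropped genes with few counts and applied DESeq2 normalisation. This normalised read signal is what was deposited. The submitters' processing notes name GRCh38 and GRCm39. Coordinates and sequences here come from GENCODE M21 on GRCm38, matched by gene ID for 19380 of 19446 genes, and may differ from the build counted on.

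Each value divided by the smallest positive value of its library gave whole reads for 100% of 116676 values (largest deviation 6.3e-09). Genes reaching 10 reads in 2 or more libraries (15948) were fitted by limma-trend on log2(value + 1), with Benjamini-Hochberg adjustment at 0.05. SEs come from this fit, and the log2(value + 1) scale understates changes of low genes. A count of 0 allows up to 3 reads. Intervals describe counting error alone and leave out the spread between libraries. PCR copies were not marked by molecular identifiers, so the intervals may also be too narrow for counting error. limma 3.58.1, edgeR 4.0.16, DESeq2 1.42.0, BLAST 2.17.0 and Biopython 1.88 were used, and the fits were tested on simulated data.

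Deviations of same-numbered libraries from their group means correlated with r = 0.762, 0.514 and 0.217, all above 0.1, so the numbers were taken to pair the libraries. Libraries of unlike number gave r from -0.643 to 0.222. The highest of these, WT 2 with CharmeKO 3, was not below that of pair 3, so the pairing of replicate 3 is uncertain. The labels do not say what the numbers share.

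The members and gene lists were chosen with earlier results of these data known. Named were the 8 members, in each list the gene with the lowest p and up to 5 called genes, and the 2 genes most alike to each member, of which 1 is not reported here. Other genes are said in the text to be named after their values were seen, except *Eif4a3*, *Idh2*, *Cyfip2* and *Glo1*, which were also named outside this rule. Alternatives were other tests, scalings, filters and pseudocounts, the replicate block and leaving out each library.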

Additional observations from a re-analysis of the deposited data

How the results depend on the processing

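The number of genes called was 0 with limma and 0 under every alternative except the DESeq2 Wald test (8) and DESeq2 with the replicate block (64). These also called 3 of the 8 members and, with the block, 3 of the 7 that had an adjusted p, and 1 and 1 of the list and neighbour genes, against 0 with limma. The cause of this difference between methods was not tested. Nothing is read from the calls of the members, which were chosen with this contrast known. The block in limma and edgeR changed no call. Leaving out single libraries gave 0 genes called each time. The log2 difference then ranged from -2.35 to -1.48 for *Cwc22* (extremes without WT 2 and WT 1), 2.71 to 4.02 for *Ctdsp2-ps* (without CharmeKO 2 and CharmeKO 3), -3.09 to -2.39 for *Tent2-ps1*, 2.60 to 3.16 for *Npm3-ps1* and 0.15 to 0.46 for *Nnt*, all with the same direction. The parent genes turned direction without single libraries. *Npm3-ps1* was below the filter of 50 reads in 2 libraries and has no value there.

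The difference in the mean share of the pseudogene was 1.11, -2.99 and 2.00 percentage points for *Ctdsp2-ps*, *Tent2-ps1* and *Npm3-ps1*. It kept its direction with summed reads. Averaged within same-numbered pairs (replicate block) it is the same by arithmetic (1.11, -2.99 and 2.00), so that setting could not change it. With single libraries left out it ranged from 0.489 to 1.53, -3.91 to -2.48 and 1.58 to 2.50, and the lowest value for *Ctdsp2-ps* came without CharmeKO 2. Depth limits *Npm3-ps1* most, with 1 to 3 reads per WT library.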
